A study of Mus musculus with 16 samples.

Results

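The genes described here are the cytosolic ribosomal protein genes, taken as every entry of the count table whose symbol is Rpl or Rps followed by a number, with or without a closing a, x, l or y, together with Rpsa, Rplp0, Rplp1 and Rplp2. Entries with a pseudogene symbol (-ps) and the S6 kinases were left out. Rps4l, annotated as a transcribed processed pseudogene, matched the symbol rule and was kept. The rule found 81 of 25054 entries, 49 with symbols of the large (60S) subunit and 32 of the small (40S) subunit. It used no measured value. RNA was sequenced from newborn C57BL/6J mouse pups whose parents both carried 1 mutant copy of Man1a2, the gene of an N-glycan-trimming mannosidase, in which exon 2 is missing. The 4 pup groups were live wild type (WT) pups, live heterozygous (Het, Man1a2+/-) pups, dead Het pups and dead null (Man1a2-/-) pups. Both parents drank water with N-acetylcysteine (NAC, an antioxidant, 1 g/kg) or placebo water from before breeding until delivery, and pups were watched for 24 h after birth. Live pups were killed at the end of that watch and dead pups were collected when found, so that survival, time of collection and, for WT and null pups, genotype cannot be told apart. Each of the 16 libraries, labelled lung or liver, held pooled RNA of 3 experiments, or of 2 for dead Het pups, and no label group had more than 1 library.

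Ribosomal proteins and ribosomal RNA together build the ribosome, the machine that makes every protein of the cell. One copy of nearly every ribosomal protein goes into each ribosome, and surplus protein is degraded, so these genes are known for even expression. Most of their mRNAs begin with a run of pyrimidines at the first base, the 5' terminal oligopyrimidine (TOP) tract, through which mTOR signalling adjusts their translation. Fetal and newborn liver is known as a site of growth and of red cell production, both with a high demand for ribosomes.

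The tissue label was not followed by the markers. By Sftpc (surfactant protein C of alveolar type 2 cells) and Alb (albumin of hepatocytes), 7 libraries were lung-content, 8 were liver-content and 1, labelled dead null placebo lung, was mixed. Of the 8 libraries labelled liver, 4 were lung-content, and of the 8 labelled lung, 4 were liver-content. Values are therefore given by content, and a library is named by its label. Whether the treatment or pup group labels of these libraries hold could not be checked in the same way. The gene count of Man1a2, from 29.7 to 75.4 CPM (TMM-scaled, explained with the next results) in WT and from 34.3 to 60.3 in null libraries, covers all exons and does not check the missing one. Lung-content libraries held 7236865 to 11808823 counts and liver-content libraries 14115802 to 16107749. The precursor ribosomal RNA symbol Rn45s took 4.05% to 26.2% of the counts in lung-content and 0.845% to 6.29% in liver-content libraries. A cell type that is less abundant and one with less RNA per cell cannot be told apart in such bulk libraries.

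Across members, the level per length was even. Counts relative to library size (CPM) were scaled by TMM, a trimmed mean of log ratios that sets the bulk of genes equal between libraries, and the mean over 16 libraries was divided by the length of the coding sequence in GENCODE. Of the 78 members with a mean of at least 1 CPM, all of which also had at least 10, the median was 1004 CPM per coding kb and 69 lay within 2-fold of it. Rpl41, which encodes the shortest ribosomal protein at 78 coding bases was highest at 8725 CPM per coding kb, but counts over its whole transcript were here divided by a coding length under that of a read. Rps29 at 2183 and Rps24 at 1778 CPM per coding kb followed it. Rps4l at 42.2, Rpl30 at 51.8 and Rpl26 at 78.2 CPM per coding kb were lowest. Rps4l has no annotated coding sequence, so its whole transcript of 789 bases was used in its place.

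The authors kept uniquely mapped reads, and ribosomal protein genes have many processed copies in the genome. An exact search of annotated transcripts found that a median of 56.9% of the 100-base windows centred in a member's coding sequence were also in another gene. For 49 of 81 members the share was over 50%, and for 10 it was 0. All windows of Rpl5, a 60S protein of the 5S particle that holds Mdm2, were shared with 5 pseudogenes, and its level per coding kb was 938 CPM. Rpl26 and Rpl30, with 36.8% and 44.5% of windows shared, had lower levels per coding kb than Rpl5. The part of shared windows in these levels was not tested. Unannotated copies were not searched. Counts of members with shared windows are uncertain, since reads of a gene and its copies could be lost or moved between them.

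**Figure D1:**
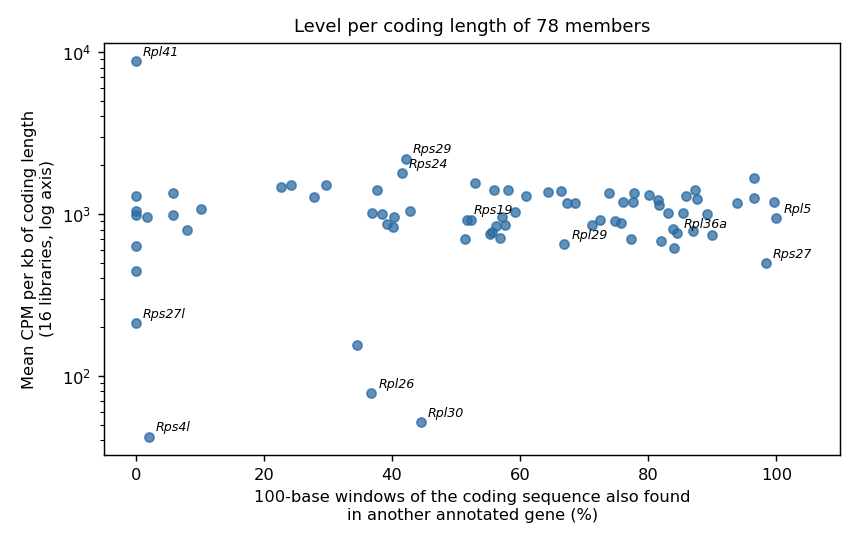
Mean level of each of the 78 members over 16 libraries, in TMM-scaled CPM per kb of coding length on a log axis, against the percent of its 100-base coding windows that another annotated gene also holds. Most points lie near the median of 1004 and Rpl41 stands above at 8725. Rps4l, Rpl30, Rpl26, Rpl34 and Rps27l lie below, with 0% (Rps27l) to 44.5% (Rpl30) of windows shared. For Rps4l the whole transcript stands in for the coding sequence.

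Of the minor paralogs in the family, Rpl10l, Rpl39l and Rpl3l were near or at 0, while Rps4l and Rps27l were not. Rpl10l, the testis copy of the 60S protein Rpl10, had 0 counts in all 16 libraries. Rpl39l, the testis copy of Rpl39, had 22 counts in all and at most 3 in any library, while Rpl39 had 1215 to 4705. Rpl3l, which replaces Rpl3 in heart and skeletal muscle ribosomes, had 97 counts in all and 3 or fewer in 9 libraries. Its highest value, 32 counts, was in the library labelled live WT NAC liver, in which the summed level of 14 heart and skeletal muscle genes was also highest, at 1089 TMM-scaled CPM. The sum of these muscle genes ran from 15.0 to 1089 in liver-content and from 194 to 517 in lung-content libraries, and its part in the Rpl3l counts was not tested. These 3 paralogs did not enter the tests. Rps4l, annotated as a transcribed processed pseudogene of Rps4x (an X-linked 40S protein), had 25.5 to 44.8 CPM and the lowest coefficient of variation of the members, 15.3%, beside 26.2% for Rps4x.

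Rps27 and Rps27l, like Rps4x and Rps4l, are a pair in which both copies were detected and tested. Their coding sequences are printed because Rps27 and Rps27l parted between contents. Rps27 is a 40S protein, and Rps27l is a near copy of it that is also known as a p53 target. Rps27 lies at chr3:90212522-90213651 on the minus strand and Rps27l at chr9:66946086-66949516 on the plus strand (GRCm38). Both coding sequences have 255 bases and are 76.1% identical, with capitals at the 61 positions where they differ.
Rps27: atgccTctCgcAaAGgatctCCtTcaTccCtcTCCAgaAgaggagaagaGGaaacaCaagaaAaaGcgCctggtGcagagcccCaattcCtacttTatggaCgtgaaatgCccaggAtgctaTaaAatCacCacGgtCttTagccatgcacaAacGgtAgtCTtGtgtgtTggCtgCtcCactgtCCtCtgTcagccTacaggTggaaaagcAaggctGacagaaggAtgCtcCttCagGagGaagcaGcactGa
Rps27l: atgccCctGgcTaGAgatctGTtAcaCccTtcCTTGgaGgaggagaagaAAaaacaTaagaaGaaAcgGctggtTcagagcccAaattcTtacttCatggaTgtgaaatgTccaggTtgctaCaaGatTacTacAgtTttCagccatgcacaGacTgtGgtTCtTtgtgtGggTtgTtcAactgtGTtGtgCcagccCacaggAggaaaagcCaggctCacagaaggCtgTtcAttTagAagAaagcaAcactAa
The longest stretch without a difference was 11 bases, so no 100-base window is common to the 2 genes. Rps27l shared no window with any annotated gene, while 98.3% of Rps27 windows also occur in 2 other genes, 1 of them a pseudogene and the other the protein-coding copy Rps27rt. Rps27 had 88.6 to 155 CPM (median 133) in lung-content and 95.9 to 201 (median 124) in liver-content libraries, so the classes overlapped. Rps27l had 25.5 to 31.02 CPM (median 30.1) in lung-content and 59.96 to 104 (median 72.5) in liver-content libraries, with no overlap. By edgeR's quasi-likelihood test, the log2 fold change (log2FC) of lung-content against liver-content was -0.07 ± 0.18 (SE) for Rps27 (adjusted p = 0.723) and -1.41 ± 0.14 for Rps27l (adjusted p = 6.76e-07). Rps27rt, which is outside the symbol rule, had a log2FC of -0.08 ± 0.18 (adjusted p = 0.688).

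Summed over the family, the level was lower in lung-content than in liver-content libraries after TMM scaling. The sum ran from 22118 to 35115 TMM-scaled CPM (median 31234, mean 29006 ± 5700, SD, n = 7) in lung-content and from 41697 to 71714 (median 49588, mean 53175 ± 10633, SD, n = 8) in liver-content libraries, with no overlap. The mixed library was at 26111. As a raw share of the library's counts, the sum was 3.11% to 4.18% in lung-content and 3.47% to 6.07% in liver-content libraries, and the classes overlapped. Without Rn45s in the total the shares were 3.68% to 5.03% and 3.51% to 6.48%. The large subunit held 59.5% to 60.4% of the family's counts in lung-content and 58.2% to 59.4% in liver-content libraries.

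**Figure D2:**
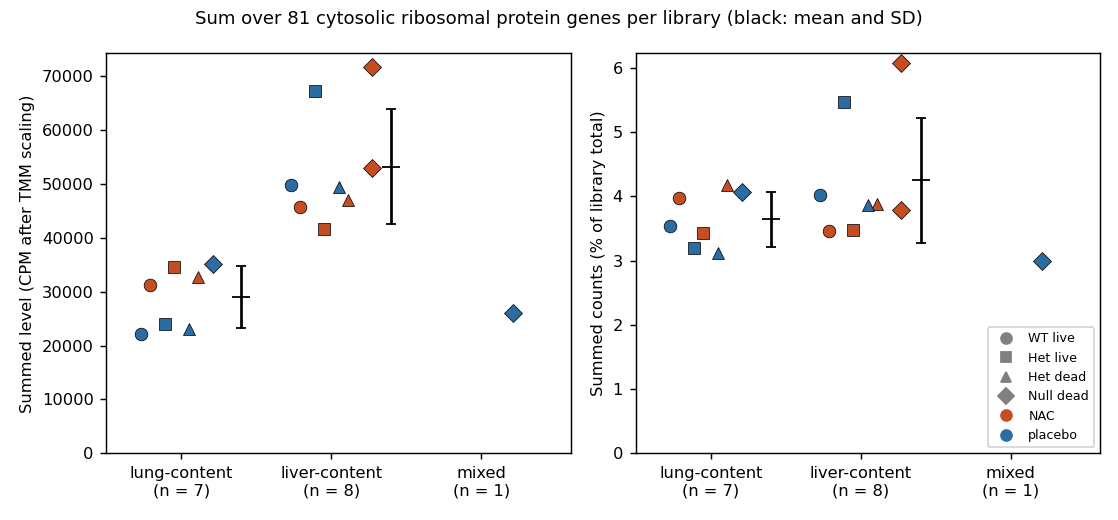
Sum over the 81 genes in each library by marker content, as TMM-scaled CPM (left panel) and as percent of the library's counts (right panel), with symbols for pup group, colours for treatment and black bars for mean and SD. After TMM scaling the 7 lung-content libraries (22118 to 35115) lie below all 8 liver-content libraries (41697 to 71714), and as percent of counts the classes overlap.

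Lung-content and liver-content libraries were compared to ask how the family differs between the organs, with pup group and treatment in the fit and the mixed library left out. With 1 library per label group, libraries of other pup groups and treatments served as replicates, and since nothing says that pools are biological replicates the p-values measure only the spread between these libraries. Of 78 members tested, 72 were lower in lung-content libraries at an adjusted p under 0.05 and 0 were higher (edgeR's quasi-likelihood test, Benjamini-Hochberg over 14184 genes). Over all genes, 38.6% were called lower and 35.6% higher. DESeq2 called 71 members lower and 0 higher. By edgeR's quasi-likelihood test, 73 members, all of them lower, had an unadjusted p under 0.05, as did 10766 of 14184 genes in either direction. The median log2FC over members was -0.78, against -0.07 over all genes. In 58 members every lung-content library lay below every liver-content library, and 26.3% of all genes did so. Leaving out each library in turn gave 67 to 74 called members.

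The number called depends on the scaling. With library size alone, 15 members were lower and 4 were higher, while 22.3% of all genes were lower and 52% higher, because this scaling moved the median of all genes from -0.07 to 0.56. Relative to the median gene, the members' median was -0.71 with TMM and -0.72 with library size alone. A scale factor shifts all genes of a library alike, so this relative value hardly changes by construction. The 15 members lower under both scalings were Rpl7a, Rpl12, Rpl14, Rpl26, Rpl28, Rpl30, Rpl35, Rpl36a, Rplp1, Rps2, Rps12, Rps18, Rps26, Rps27l and Rpsa. The 4 that were higher with library size alone were Rpl21, Rps4l, Rps19 and Rps27, none of which was called with TMM.

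Among single members, Rpsa, the 40S protein that doubles as a laminin receptor, had 474 to 724 TMM-scaled CPM (median 628) in lung-content and 1462 to 2313 (median 1693) in liver-content libraries. Its log2FC was -1.49 ± 0.16 (adjusted p = 1.11e-06). Rps2, at the entry of the mRNA channel, had 449 to 656 CPM (median 612) and 1390 to 2539 (median 1676), a log2FC of -1.60 ± 0.17 (adjusted p = 1.04e-06). Neither gene overlapped between the classes. Rplp1, a stalk protein that recruits elongation factors, had 205 to 298 CPM (median 254) in lung-content and 608 to 1219 (median 674) in liver-content libraries, a log2FC of -1.54 ± 0.18 (adjusted p = 2.63e-06). Its stalk partners moved less, with log2FC of -0.91 ± 0.17 for Rplp2 (adjusted p = 0.000276) and -0.80 ± 0.18 for Rplp0 (adjusted p = 0.00112).

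The largest fold belonged to Rpl26, which lies at the exit of the peptide tunnel. It had 3.81 to 23.7 CPM (median 10.6) in lung-content and 41.6 to 72.7 (median 58.7) in liver-content libraries, a log2FC of -2.50 ± 0.29 (adjusted p = 2.53e-06). Rpl30, a 60S protein, had 3.56 to 11.7 CPM (median 9.02) and 22.2 to 34.0 (median 28.4), a log2FC of -1.76 ± 0.22 (adjusted p = 7.02e-06). Both are among the members at low level, with 48 and 42 counts in their lowest libraries, and had the largest coefficients of variation over the 16 libraries, 74.9% and 60.7%.

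Rpl5 and Rpl11, the Mdm2-binding pair, had log2FC of -0.55 ± 0.17 (adjusted p = 0.00982) and -0.83 ± 0.17 (adjusted p = 0.000612). Rps6, the substrate of the S6 kinases, was at -0.75 ± 0.18 (adjusted p = 0.00162), and Rpl38, known for Hox mRNA translation, at -0.89 ± 0.14 (adjusted p = 6.64e-05). Rpl41 was at -0.94 ± 0.19 (adjusted p = 0.000474). The paralog parents Rpl3, Rpl10 and Rpl39 were at -0.86, -0.67 and -0.69, all called. Rps4x, at -0.43 ± 0.16 (adjusted p = 0.0269), lost its call when any 1 of 6 libraries was left out, all of them placebo (live WT, live Het and dead Het, both tissue labels), with adjusted p from 0.0514 to 0.0933 by edgeR's quasi-likelihood test.

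At the other end stood Rps19, a 40S protein needed for the processing of ribosomal RNA and mutated in Diamond-Blackfan anemia, a failure of red cell production. It had 298 to 509 TMM-scaled CPM (median 420) in lung-content and 333 to 573 (median 378) in liver-content libraries, and the classes overlapped throughout. Its log2FC was 0.03 ± 0.16 (adjusted p = 0.853), the only member above 0. Rps19 and Rpl21 also had the lowest coefficients of variation after Rps4l, 21.2% and 19.4%.

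**Figure D3:**
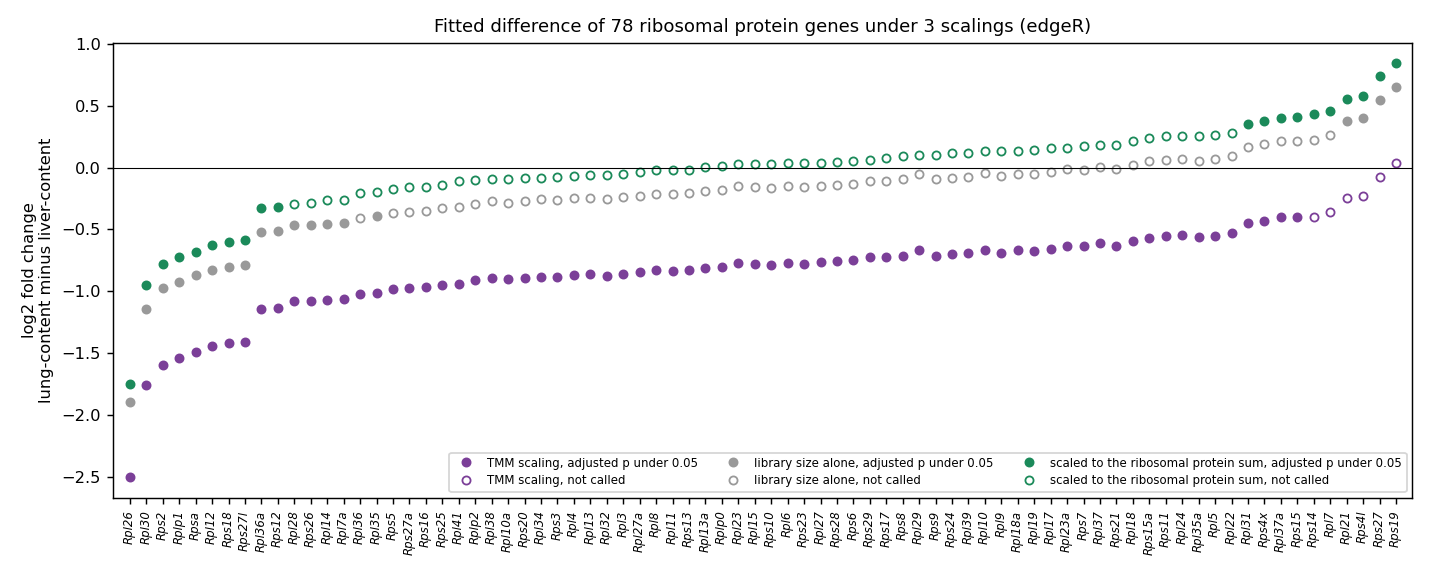
Fitted log2FC of lung-content against liver-content for each of the 78 members under TMM, under library size alone and with counts scaled to the family's own sum, filled where the adjusted p was under 0.05. The order of members is nearly the same under the 3 scalings while the level of the whole row shifts, with Rpl26 lowest and Rps19 highest in each.

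To describe differences within the family that do not depend on how the family was scaled against other genes, counts were also scaled to the summed ribosomal protein counts of each library, so that a value is a member's share of the family. This scaling was added after seeing the data. At an adjusted p under 0.05, 10 members had a lower and 10 a higher share in lung-content libraries (edgeR's quasi-likelihood test), and of all genes so scaled 18.6% were lower and 54.6% higher. The members' shares have a fixed total, so lower shares of some require higher shares of others. Genes outside the family are not bound in this way. The 10 lower were Rpl12, Rpl26, Rpl30, Rpl36a, Rplp1, Rps2, Rps12, Rps18, Rps27l and Rpsa, and all of these were also lower with library size alone. The 10 higher were Rpl7, Rpl21, Rpl31, Rpl37a, Rps4l, Rps4x, Rps14, Rps15, Rps19 and Rps27, and 4 of these were higher with library size alone. Names in these lists that no naming rule gave were taken after their values were seen.

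Rps19 made up 1.29% to 1.47% (median 1.39%) of the family's counts in lung-content and 0.745% to 0.811% (median 0.778%) in liver-content libraries. The log2FC of its share was 0.84 ± 0.13 (adjusted p = 3.24e-05), and the mixed library, at 1.16%, lay between the classes. The share of Rps27 was 0.390% to 0.447% in lung-content and 0.230% to 0.281% in liver-content libraries, a log2FC of 0.74 ± 0.14 (adjusted p = 0.000144). The share of Rps27l went the other way, 0.0866% to 0.134% against 0.131% to 0.163%, a log2FC of -0.59 ± 0.16 (adjusted p = 0.00381).

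Among members with a lower share, Rpsa was at 2.00% to 2.25% in lung-content and 3.12% to 3.55% in liver-content libraries, a log2FC of -0.68 ± 0.13 (adjusted p = 0.000278). Rps2 was at 1.80% to 2.31% and 3.32% to 3.54%, a log2FC of -0.78 ± 0.14 (adjusted p = 0.000113). Rplp1 was at 0.812% to 0.942% and 1.31% to 1.70%, a log2FC of -0.72 ± 0.14 (adjusted p = 0.00027). In these 3 members and in Rps19 and Rps27 the classes did not overlap. In all, 13 members had higher and 11 lower shares in lung-content libraries with no overlap, which held for 38.2% and 10.3% of all genes taken relative to the ribosomal protein sum. Only the members' values are bound to a fixed total.

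**Figure D4:**
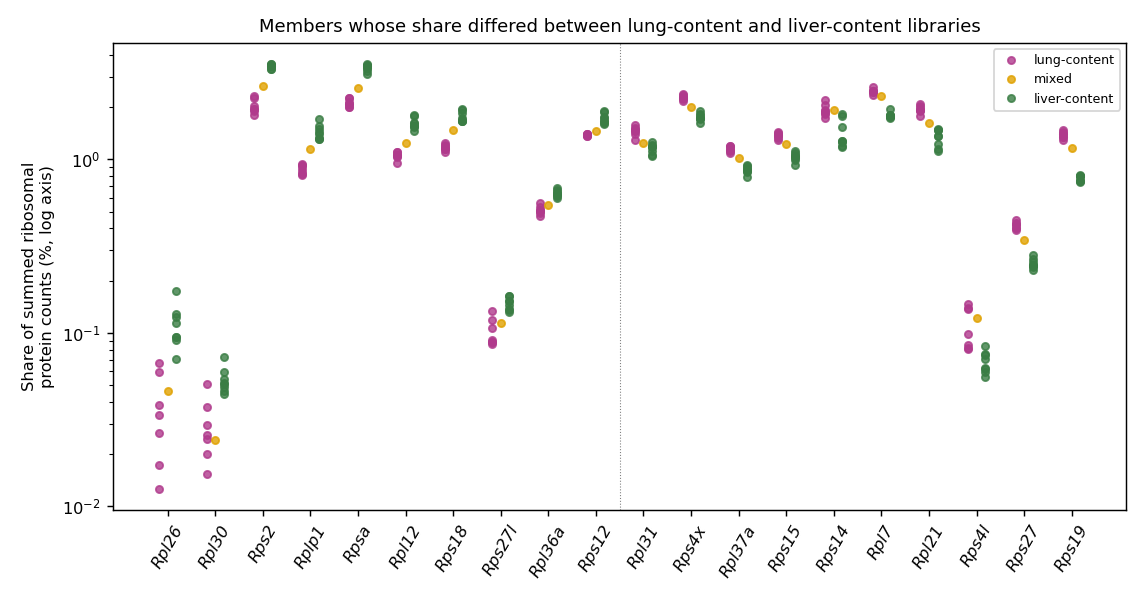
Share of the summed ribosomal protein counts, in percent on a log axis, for the 20 members whose share differed between contents, 1 point per library. The 10 genes left of the dotted line have lower and the 10 right of it higher shares in lung-content libraries, and the mixed library falls between the classes for Rps19, Rps27, Rps2 and Rpsa.

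Start-site windows are printed to set the TOP tract beside the values. Of the members, 60 had a window in the RefSeq table (GRCm38.p6), and those printed had the largest share differences in each direction among these. Rpl30, Rplp1 and Rps4l, also with large share differences, had no window. The listed starts of Rps2, Rps19, Rpsa and, by a few bases, Rps27 lie downstream of their gene starts in GENCODE. The runs therefore describe the listed starts only. Capitals mark the longest run of C and T that touches the 5 bases before to 10 bases after the listed start, and each window runs from 60 bases before the start to 20 bases after it.
Rpl26 chr11:68901506-68901585, plus strand: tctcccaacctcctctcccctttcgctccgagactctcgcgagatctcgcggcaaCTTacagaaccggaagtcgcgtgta
Rps2 chr17:24720003-24720082, plus strand: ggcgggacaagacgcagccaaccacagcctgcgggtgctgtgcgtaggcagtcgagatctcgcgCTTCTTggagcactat
Rpsa chr9:120127706-120127785, plus strand: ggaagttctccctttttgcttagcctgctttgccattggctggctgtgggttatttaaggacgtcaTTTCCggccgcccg
Rps27 chr3:90213629-90213708, minus strand: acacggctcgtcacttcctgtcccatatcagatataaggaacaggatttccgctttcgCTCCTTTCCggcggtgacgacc
Rps19 chr7:24884532-24884611, plus strand: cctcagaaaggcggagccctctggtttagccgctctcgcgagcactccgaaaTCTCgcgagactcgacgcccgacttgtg
A C/T run of 8 or more at the start was found in 22 of 60 member windows, 36.7%, and in 11.3% of all 32851 RefSeq windows. The letters CCGGAAG, on either strand within 250 bases before to 50 after the start, were found in 40% of member windows and 8.86% of all, and AAGATGG in 13.3% and 6.34%. The first is a core that ETS factors are known to bind and the second one of YY1, and the 2 can overlap by the letters AAG. Of the members with a lower share in lung-content libraries, 3 of 8 with a window had a run of 8 or more, and of those with a higher share, 1 of 6. These matches are descriptions of letters and no test was made of them.

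A pair of liver-content libraries stood above the others. The libraries labelled dead null NAC liver and live Het placebo lung, in that order here, had 6.07% and 5.48% of their counts in the family, and the other 6 liver-content libraries 3.47% to 4.02%. In TMM-scaled CPM, 73 of 78 members were higher in both than in all of the other 6, which was so for 17.7% of all genes. These libraries were picked by their summed level of this family. The count of members and their ratio below largely follow from that choice, while genes outside the family had no part in it. The ratio of the means, 2 libraries over 6, had a median of 1.46 and ran from 0.802 for Rpl29 to 2.03 for Rps14. Mitochondrial ribosomal protein genes were higher in the same way, 63 of 74 with a median ratio of 1.44. Of the 10 proliferation genes, 9 were lower in both than in all of the other 6 (14% of all genes), with a summed level of 818 and 832 against 1285 to 2704 CPM, and of 13 erythroid entries 11 were lower, 13098 and 11684 against 30331 to 75039. The liver marker sum was 171433 and 214928 against 232985 to 301294, and Rn45s 6.29% and 4.54% against 0.845% to 4.41%. The part of these in the ribosomal protein levels was not tested. The 2 libraries share neither pup group, treatment nor tissue label. Without them, 67 members were lower and 0 higher in lung-content libraries (37.4% and 34.4% of all genes), and the median log2FC was -0.65. The shares of 8 of the 10 lower and all 10 of the higher members were still called.

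NAC was compared with placebo because the study asked what gestational NAC changes in the pups. With pup group and content in the fit, 0 of 78 members passed, against 0.0353% of all genes higher and 0% lower (edgeR's quasi-likelihood test). No member had an unadjusted p under 0.05, and DESeq2 called 0. The median log2FC over members was 0.09, against -0.0036 over all genes, with a median SE of 0.16, and single members ran from -0.16 for Rps4l to 0.28 for Rpl28.

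Within each content, in pairs of the same pup group, the values had opposite signs. In lung-content libraries the family's sum was 31234 CPM with NAC and 22118 with placebo in live WT pups, 34622 and 24036 in live Het pups, and 32797 and 23122 in dead Het pups. NAC libraries were thus higher by 1.41, 1.44 and 1.42 times, as a difference of 1 library from 1 library. The fourth placebo library of this class, labelled dead null placebo liver, stood at 35115, above all 3 NAC libraries, so treatments overlapped across pup groups. In liver-content libraries the sum was 45663 with NAC and 49714 with placebo in live WT pups, 41697 and 67185 in live Het pups, and 47056 and 49462 in dead Het pups.

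Of 78 members, 75 were higher with NAC in all 3 lung-content pairs, as were 28.2% of all genes, and 1 was lower in all 3, as were 31.2%. In the liver-content pairs 51 members were lower in all 3, as were 17.6% of all genes, and 0 were higher in all 3 (17.2%). Both patterns held together in 50 members and in 5.65% of all genes. All members of a pair come from the same 2 libraries, so these counts are not replicates of the NAC contrast. The largest of the liver-content differences involved the library labelled live Het placebo lung, 1 of the 2 with the high sums. In percent of counts, the lung-content pairs were 3.98% and 3.54%, 3.44% and 3.20%, and 4.18% and 3.11%. The liver-content pairs were 3.47% and 4.02%, 3.48% and 5.48%, and 3.88% and 3.86%, so that the dead Het pair no longer differed in the same direction.

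**Figure D5:**
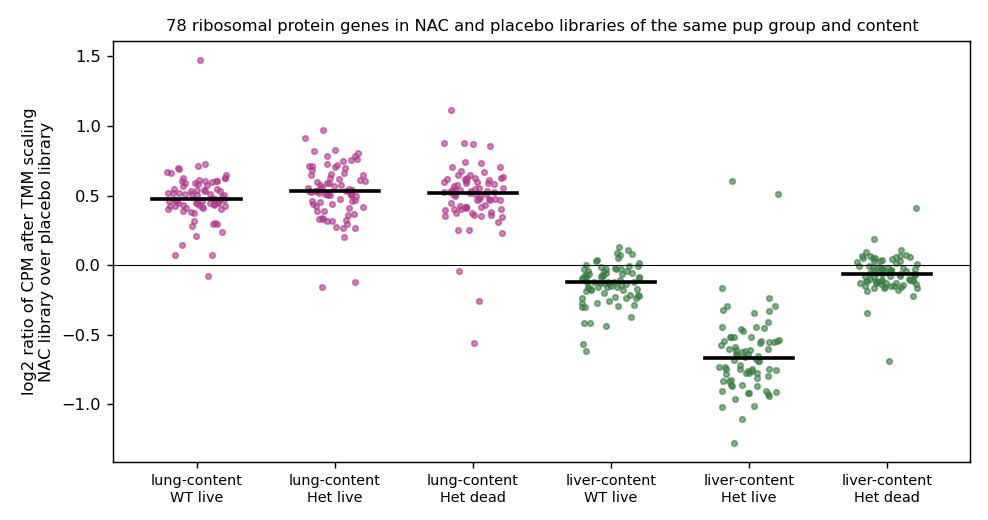
The log2 ratio of TMM-scaled CPM, NAC library over placebo library, for each of 78 members in the 6 pairs of libraries with the same pup group and content, with a black line at the median. Medians are 0.48, 0.53 and 0.52 in the lung-content pairs and -0.12, -0.67 and -0.06 in the liver-content pairs.

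The difference between the contents was tested with a content by treatment term, a comparison set up after these values had been seen. By edgeR's quasi-likelihood test 0 of 78 members passed, with 0.0917% of all genes called higher and 0.0846% lower. At an unadjusted p under 0.05 there were 68 members, all higher (2544 of 14184 genes), the smallest adjusted p being 0.103. The median difference in log2FC, lung-content minus liver-content, was 0.79 over members and -0.04 over all genes. DESeq2 called 44 members, all with a higher NAC effect in lung-content libraries, so the call depends on the tool. Rpl36, a 60S protein, had the largest difference, 1.09 ± 0.31 (adjusted p = 0.115 by edgeR), and Rps4l the smallest, 0.13 ± 0.27 (adjusted p = 0.827 by edgeR). Without the 2 high libraries the median was 0.65 and edgeR called 0.

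Other gene groups differed in the same pairs. In the lung-content pairs, summed p53 target genes were 1.83 to 2.46 times as high with NAC and the liver marker sum 1.92 to 6.22 times, from 184 to 415 CPM up to 744 to 1144 CPM. Translation factors and other TOP mRNAs were 1.24 to 1.41 times as high. Mitochondrial ribosomal protein genes went the other way, at 0.876 to 0.932 times. In the liver-content pairs, the proliferation sum was 1.11 to 2.10 times and the erythroid sum 1.14 to 4.49 times as high with NAC. Their part in the ribosomal protein values was not tested.

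When NAC and placebo were set side by side by the labelled tissue, as 8 single pairs with no test, the direction went with the contents of the pair. A log2FC of at least 1 in size was found for 0 to 42 members higher and 0 to 32 lower per pair, 179 and 52 over the 8 pairs. In the pair labelled live WT liver, 38 members were that much higher and 0 lower (24.7% and 25% of all genes), and in live WT lung 0 were higher and 12 lower (27.6% and 28.5%). In live Het liver 21 were higher and 0 lower (25.2% and 25%), and in live Het lung 0 and 32 (29% and 31.6%). In dead Het lung 38 were higher and 0 lower (25.4% and 25.6%), and in dead Het liver 0 and 8 (25.7% and 26.2%). In the null pairs 42 were higher and 0 lower in lung (21.8% and 25.5%) and 40 and 0 in liver (29.1% and 26.7%). In each of the 8 pairs the content of the 2 libraries differed. All members past the fold were higher in the 5 pairs whose NAC library was liver-content and lower in the 3 whose NAC library was lung-content. With library size alone, 34 members passed the fold over the 8 pairs.

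Dead pups were compared with live pups, the groups that the study set against each other. With treatment and content in the fit, 0 of 78 members passed, as did 0% of all genes, no member had an unadjusted p under 0.05, and DESeq2 called 0 (edgeR's quasi-likelihood test). The median log2FC was 0.12 over members, 77 of which were above 0, and 0.00079 over all genes. In lung-content libraries the sum was 23122 to 35115 CPM (median 32797, n = 3) in dead and 22118 to 34622 (median 27635, n = 4) in live pups. In liver-content libraries it was 47056 to 71714 (median 51187, n = 4) and 41697 to 67185 (median 47688, n = 4). The ranges overlapped in both. In liver-content libraries 2 of 4 live libraries lay below every dead one and 1 dead library lay above every live one.

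Within each content, 0 members were called by edgeR or DESeq2 and 0 had an unadjusted p under 0.05, with 0% of all genes called. The median log2FC was 0.20 in lung-content and 0.17 in liver-content libraries, and single members ran from -0.58 (Rpl30) to 0.38 (Rpl29) and from -0.09 (Rpl29) to 0.28 (Rpl32). The difference between the contents was not significant for any member either, with 0 called by edgeR and DESeq2, 0 at an unadjusted p under 0.05, and 0.00705% of all genes called lower. With 3 to 4 libraries a group and a median SE over members of 0.19 to 0.33, differences of this size were not detectable.

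Gene lists around the ribosome were compared between the contents in the same fit, in which 38.6% of all genes were lower and 35.6% higher in lung-content libraries. Of 24 ribosome biogenesis factors tested, 23 were lower and 0 higher, with a median log2FC of -1.31. Wdr12, a 60S assembly factor, had 1.95 to 6.85 CPM in lung-content and 22.2 to 34.6 in liver-content libraries, a log2FC of -2.61 ± 0.22 (adjusted p = 9.94e-08), and the nucleolar GTPase Gnl3 10.7 to 19.7 and 46.3 to 82.3, a log2FC of -2.15 ± 0.16 (adjusted p = 3.59e-08). Of 12 genes of the RNA polymerase I machinery, 5 were lower, a share near that of all genes, and 0 higher (median -0.21), led by the catalytic subunits Polr1a at -1.53 ± 0.13 (adjusted p = 1.28e-07) and Polr1b at -1.24 ± 0.13 (adjusted p = 1.33e-06). All 74 mitochondrial ribosomal protein genes were lower, with a median of -1.34, led by Mrpl12 at -2.72 ± 0.23 (adjusted p = 1.24e-07) and Mrpl50 at -2.36 ± 0.20 (adjusted p = 1.27e-07).

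Of 17 translation factors and other TOP mRNAs, 10 were lower and 0 higher (median -0.49), led by Eef1d at -1.69 ± 0.12 (adjusted p = 2.08e-08) and Eef1b2 at -1.51 ± 0.18 (adjusted p = 3.26e-06), both of the complex that recharges elongation factor 1A. Of 7 ribosomal protein genes outside the symbol rule, 6 were lower and 0 higher (median -0.78), led by Rpl36al at -1.32 ± 0.14 (adjusted p = 7.88e-07) and Rpl22l1 at -1.24 ± 0.15 (adjusted p = 5.49e-06). Of 16 regulators by mTOR and MYC, 6 were lower and 4 higher (median -0.21), with the lower share near that of all genes. Myc, the growth transcription factor, had 6.33 to 21.8 CPM in lung-content and 31.6 to 96.7 in liver-content libraries, a log2FC of -2.61 ± 0.26 (adjusted p = 6.69e-07). The cap-binding protein Eif4e was at -0.82 ± 0.12 (adjusted p = 3.67e-05), the kinase Akt1 at 0.84 ± 0.11 (adjusted p = 1.31e-05) and Mycn at 0.90 ± 0.38 (adjusted p = 0.0453).

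Of 9 genes of p53 and its targets, 6 were higher and 1 lower (median 0.61). Phlda3, an Akt inhibitor, was at 2.69 ± 0.23 (adjusted p = 1.13e-07), Cdkn1a, the cell cycle inhibitor p21, at 1.53 ± 0.57 (adjusted p = 0.0258), and Trp53 itself at -1.15 ± 0.20 (adjusted p = 0.000117). Without the 2 high libraries 3 of the p53 genes were higher in place of 6. These p are by edgeR's quasi-likelihood test over all genes, and the all-gene median was -0.07. Scaled to the ribosomal protein sum, 12 of the 24 biogenesis factors and 38 of the 74 mitochondrial genes were still lower, 1 of each was higher, and the medians were -0.51 and -0.51 against 0.74 over all genes.

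Cell type markers also differed between contents, beside 38.6% of all genes lower and 35.6% higher. Of 10 proliferation genes all were lower in lung-content libraries (median -3.47), with sums of 107 to 254 against 818 to 2704 CPM. All 13 erythroid entries were lower (median -1.80), with sums of 7588 to 19337 against 11684 to 75039 CPM. Of 12 neutrophil and macrophage genes 11 were lower and 1 higher (median -4.79), with sums of 603 to 1506 against 3380 to 5997 CPM. Of 14 heart and skeletal muscle genes 7 were higher and 4 lower (median 1.63). Sftpc and Alb set the classes, so the lung and liver markers are a description of them, with all 12 lung markers higher and all 12 liver markers lower. Lung marker sums were 10842 to 17625 in lung-content and 32.4 to 61.9 CPM in liver-content libraries, and liver marker sums 184 to 1144 and 171433 to 301294 CPM. Their part in the family's difference was not tested. None of the genes in any of these lists passed for NAC against placebo or for dead against live pups.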

How the data were processed

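RNA of pooled newborn lung and liver was sequenced as stranded, paired-end poly(A) libraries (Illumina TruSeq). The authors trimmed adapters, aligned reads to the mouse genome (Ensembl B38, mm10 in the labels) in Array Studio and deposited estimated counts per gene from uniquely mapped reads. Fractional entries, 6.50% to 8.24% per library, were rounded with the rest to whole counts. The design had been written for whole counts. The submitters' processing notes name R 4.0.3 and edgeR 3.30.3. Read length is given as 100 bases in one source and 150 in another.

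Counts were tested with edgeR 4.0.16 (R 4.3.3; quasi-likelihood test, TMM, genes averaging 1 CPM or more, Benjamini-Hochberg over all 14184 genes, threshold 0.05) and with DESeq2 1.42.0 as an alternative. Tables were made with Python 3.11.15, pandas 2.3.3 and numpy 2.4.6. Lung-content meant at least 1000 CPM of Sftpc with under 1000 of Alb, liver-content at least 50000 CPM of Alb, before TMM. Library totals are given with the results, and counts limit precision by counting error and pooling. The fits of content, of dead against live pups and of dead against live pups within liver-content were run on simulated data. That simulation gave every gene the same spread. The fits of NAC, of dead against live pups within lung-content and of the differences between contents were not simulated. The members, gene lists and tests were chosen with earlier results of these data known. Members were named if they were minor paralogs or their parents, well-known members (Rpsa, the stalk proteins, Rps6, Rps19, Rpl5, Rpl11, Rpl38, Rpl41), at or under 3 counts in a library, the 5 called with the largest fold each way, or among the 3 highest or lowest per length or by coefficient of variation. Of each list, the 2 called genes with the largest fold each way were eligible. Alternatives were other scalings, DESeq2, no filter, a fold minimum, the labelled tissue, no Rn45s and leaving out libraries.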

Additional observations from a re-analysis of the deposited data

Results flagged for a closer look

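The ratio of the summed ribosomal protein level with NAC to that with placebo, between libraries of the same pup group and content, had opposite signs in the contents. On the log2 scale it was 0.50 in live WT, 0.53 in live Het and 0.50 in dead Het lung-content libraries, and -0.12, -0.69 and -0.072 in the liver-content libraries of those groups. Each value is 1 library over 1 library, and the difference of the sums was not tested. Per gene, the content by treatment term called 0 of 78 members by edgeR's quasi-likelihood test and 44 by DESeq2. The null libraries have no such pair within a content. Among 48 groups of 4 to 10 libraries examined for a library far from the others, 0 had one past Dixon's 95% value.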

How the results depend on the processing

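For lung-content against liver-content, 72 members were called. The number was 16 with a log2FC of at least 1 in size required, 19 with library size alone (4 higher, 15 lower), 20 when scaled to the ribosomal protein sum, 21 when so scaled without the 2 high libraries, and 0 by the labelled tissue, where each label holds both contents. Leaving out 1 library gave 67 to 74. For NAC, for dead against live pups (pooled, within each content and as their difference) and for the content by treatment term, leaving out 1 library gave 0 to 0. For that term DESeq2 called 44. In single label pairs 231 values passed the fold, and 34 with library size alone.

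Of the named members called with TMM, those whose log2FC changed sign by the labelled tissue were Rpl10 0.045, Rpl11 0.087, Rpl26 0.10, Rpl3 0.061, Rpl30 0.20, Rpl38 0.054, Rpl39 0.072, Rpl41 0.11, Rpl5 0.074, Rplp0 0.079, Rplp1 0.10, Rplp2 0.092, Rps2 0.14, Rps24 0.12, Rps27l 0.18, Rps29 0.023, Rps4x 0.052, Rps6 0.080 and Rpsa 0.11. With library size alone these were Rpl5 0.070 and Rps4x 0.19. Scaled to the ribosomal protein sum, which also moved members not called or not named above 0, they were Rpl10 0.13, Rpl39 0.12, Rpl5 0.26, Rplp0 0.013, Rps24 0.12, Rps29 0.064, Rps4x 0.37 and Rps6 0.055, and so scaled without the 2 high libraries Rpl10 0.076, Rpl11 0.019, Rpl39 0.15, Rpl5 0.27, Rplp0 0.027, Rps24 0.15, Rps4x 0.36 and Rps6 0.046. The cause was not tested beyond what each setting changes by construction. Libraries could not be paired by replicate, because every label group has 1 library and the labels give no shared replicate numbers. Pairs of the same pup group and content were described without a test. Pup group was already a term in the fits of content and of NAC.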
